A study of Mus musculus with 8 samples.

Results

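Skin that lacked pRb was compared with skin that kept it across both states of its relative p107, to find genes that moved the same way with pRb status whether or not p107 was present. The comparison set the 4 pRb-/- arrays against the 4 pRb+/+ arrays, with p107 status as a covariate, and so used all 8 arrays of the series and all 22626 probe sets that are not array controls. RNA came from whole skin of newborn FVB mice, and each array held a pool from 3 animals. There were 4 groups of 2 arrays: pRb+/+ and pRb-/-;p107+/+ skin in one p107 background, and pRb+/+;p107-/- and pRb-/-;p107-/- skin in the other. The labels of the pRb+/+ arrays leave out their p107 genotype, which was taken as wild-type. "p107 kept" below means pRb-/-;p107+/+ against pRb+/+ skin, and "p107-/-" means pRb-/-;p107-/- against pRb+/+;p107-/- skin. These backgrounds share no array. Titles number the duplicate arrays without saying that they are separate pools, so p-values measure the spread between arrays, which may be technical. From knowledge of this mouse model, and not from the labels, Rb1 was deleted by a Cre recombinase under the keratinocyte Krt14 promoter, and p107 was lost in all cells, so dermal cells of pRb-/- skin would still carry Rb1.

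The retinoblastoma protein pRb and p107 are pocket proteins. They bind E2F transcription factors and hold back the genes that E2F drives, which include those for loading the replicative helicase, copying DNA and supplying nucleotides. In the epidermis, keratinocytes divide in the basal layer, leave the cell cycle as they move into the spinous and granular layers, and end as cornified cells, while follicle keratinocytes instead build the inner root sheath and the hair shaft.

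The deposited value of a probe set was a score standardized to mean 0 and SD 1 across the 8 arrays. Thus 1 unit is 1 SD of that probe set, and it gives neither a level nor a fold change. Since p107 status also enters that SD, a gene that follows both proteins has a smaller pRb difference than one that follows pRb alone. Sizes in SD units thus do not rank genes or lists by their change in RNA, including where 1 SD marks a size below. Differences are pRb-/- minus pRb+/+ with the model's standard error, and their precision is limited by how few arrays there are.

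The targeted genes were read first. Rb1, with 1 probe set, scored 1.21 and 1.07 in pRb+/+ against -0.22 and 0.36 in pRb-/-;p107+/+ skin, and 0.02 and 0.40 in pRb+/+;p107-/- against -1.56 and -1.28 in pRb-/-;p107-/- skin. Within each background both pRb-/- arrays lay below both pRb+/+ arrays, but the pRb-/-;p107+/+ and pRb+/+;p107-/- arrays overlapped. The shared difference of Rb1 was -1.35 ± 0.21 (limma linear model, adjusted p = 0.229), which did not pass. Rbl1, which encodes p107, is itself a known E2F target. Its first probe set scored 0.08 and 0.21 in pRb+/+ skin against 1.30 and 1.14 in pRb-/-;p107+/+ skin, and -1.51 and -1.22 in pRb+/+;p107-/- skin against -0.31 and 0.31 in pRb-/-;p107-/- skin. The pRb-/- arrays were thus the higher pair in both backgrounds, by 1.22 ± 0.17 (adjusted p = 0.211). The second Rbl1 probe set differed by 0.52 ± 0.45, with -0.12 where p107 was kept and 1.16 in p107-/- skin. Rbl2, which encodes the third pocket protein p130, differed by 0.18 ± 0.59 (adjusted p = 0.94) in its first probe set. Another Rbl2 probe set differed by 0.73 ± 0.77, with -0.41 where p107 was kept and 1.87 in p107-/- skin. The sources used here do not say whether these probes fall within the deleted sequences, so they check the labels only in part.

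Control probes and markers of sex did not move one way with pRb status. The poly-A spike controls (24 probe sets) averaged 0.30 and 0.19 in pRb+/+ against 1.38 and 1.13 in pRb-/-;p107+/+ skin, and -0.57 and -0.55 in pRb+/+;p107-/- against -0.91 and -0.96 in pRb-/-;p107-/- skin. The pRb-/- arrays were thus higher in the first background and lower in the second, and the Gapdh control probe sets did the same, with -1.47 and -1.52 against 0.84 and 0.77, then 0.80 and 0.57 against 0.04 and -0.03. None of the 9 sex-linked genes measured kept its arrays apart in 1 direction in both backgrounds. Where p107 was kept 4 of them parted, 2 higher and 2 lower, and in p107-/- skin all 9 did, 3 higher and 6 lower. In p107-/- skin Y-linked Eif2s3y scored -1.43 and -1.51 in pRb+/+;p107-/- against 0.07 and 0.30 in pRb-/-;p107-/- skin, and Xist, expressed from the inactive X chromosome, scored 0.52 and 0.79 against -1.63 and -1.48. The labels do not state the pups' sex, and its part in the pRb differences was not tested.

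Over all genes, the pRb difference in one background said little about that in the other. With 1 probe set standing for each of 12393 genes, 6044 genes (48.8%) had the same sign in both backgrounds, of which 2455 were higher and 3589 lower. Across these genes the differences correlated with a Pearson r of -0.000514 and a Spearman rho of -0.000991, as a description over genes that are not independent replicates. A gene was counted as non-overlapping where both pRb-/- arrays lay above, or both below, both pRb+/+ arrays within each background and in the same direction. That held for 510 genes higher (4.12%) and 772 lower (6.23%), and for 971 probe sets higher (4.29%) and 1429 lower (6.32%). The reverse, arrays that parted in both backgrounds but in opposite directions, held for 1275 genes, of which 903 were higher where p107 was kept and lower in p107-/- skin. In 1 background alone the arrays parted for 2666 genes higher (21.5%) and 2089 lower (16.9%) where p107 was kept, and for 2187 higher (17.6%) and 4224 lower (34.1%) in p107-/- skin. The median difference over all genes was 0.10 where p107 was kept and -0.34 in p107-/- skin. The latter moved to -0.10 after quantile normalization and -0.06 after subtraction of array medians, and the shared median stayed between -0.10 and -0.05.

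**Figure D1:**
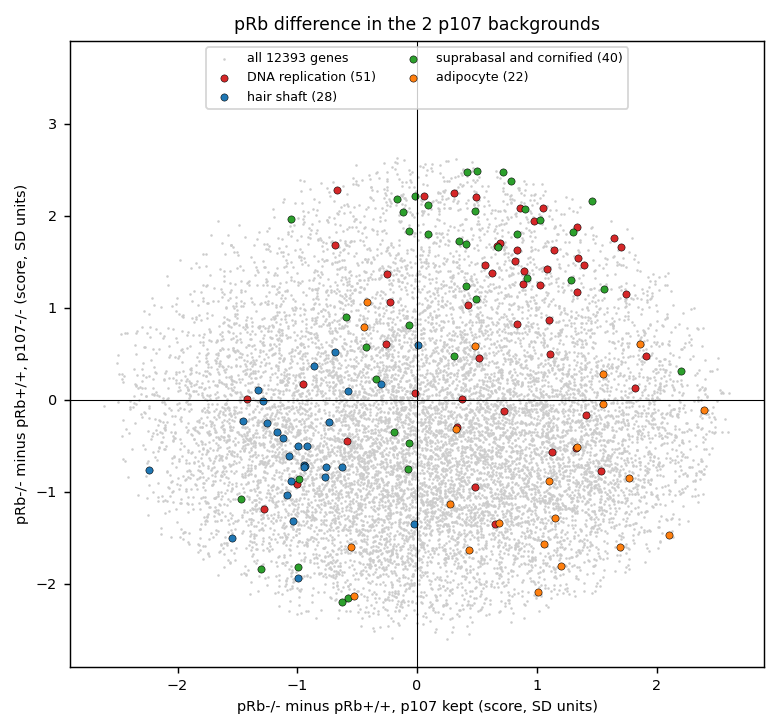
Each point is 1 gene, with its pRb-/- minus pRb+/+ difference in score (SD units) where p107 was kept on the horizontal axis and in p107-/- skin on the vertical axis; grey points are all 12393 genes and coloured points are members of 4 gene lists. The grey points fill a disc with no slope (r = -0.000514), whose edge is set by the standardization, while most replication genes lie at upper right, most hair shaft genes at lower left and 17 of the 22 adipocyte markers have opposite signs.

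Of the 22626 probe sets, 1 rose (0.00442%) and 2 fell (0.00884%) with pRb loss over both backgrounds (limma linear model, adjusted p = 0.0384 for each). The model without moderation put 2269 probe sets at an unadjusted p under 0.05, and limma's moderated test called 0, with 2099 at that unadjusted level. The 3 probe sets measured Ptprd and Zdhhc8, which fell, and Cpd, which rose. Ptprd, a receptor tyrosine phosphatase gene, scored 1.33 and 1.26 in pRb+/+ against -0.33 and -0.25 in pRb-/-;p107+/+ skin, and 0.26 and 0.30 in pRb+/+;p107-/- against -1.41 and -1.15 in pRb-/-;p107-/- skin. Its steps were -1.59 and -1.56 in the backgrounds, for a shared difference of -1.57 ± 0.07. A difference between backgrounds counts as residual spread in this model, so the smallest p-values favour equal steps. Equal steps in genes ranked by p are thus not a separate result. Both other Ptprd probe sets had the same sign, and 1 of them was also non-overlapping. Zdhhc8, which encodes a palmitoyltransferase, scored 0.18 and 0.41 against -1.27 and -1.30 where p107 was kept, and 1.34 and 1.22 against -0.39 and -0.20 in p107-/- skin. Its difference was -1.58 in each background, while its scores were higher in p107-/- skin than where p107 was kept for the same pRb status. Cpd, which encodes carboxypeptidase D, a Golgi protease that trims basic residues, scored -1.27 and -1.22 against 0.22 and 0.24, and -0.45 and -0.19 against 1.38 and 1.28. The called Cpd probe set rose by 1.56 ± 0.08, and its other 4 probe sets, of 5 in all, also had both pRb-/- arrays above both pRb+/+ arrays in each background, at 1.18 ± 0.34 to 1.44 ± 0.53. The calls needed all arrays: without any 1 array Ptprd had an adjusted p of 0.0548 to 0.267 and Zdhhc8 of 0.114 to 0.309, and Cpd passed only without pRb+/+;p107-/- replicate 1 (0.0168, against 0.319 at the highest).

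Just short of the threshold lay Tnfrsf23, a decoy receptor gene for the death ligand TRAIL, and Ide, the insulin-degrading enzyme (both adjusted p = 0.0599), then the hair genes Gprc5d (0.0619) and Krtap6-5 (0.0744), and Glg1 (0.0899). A fit with a coefficient for each genotype, averaging the differences of both backgrounds, called 41 probe sets (29 higher and 12 lower), of which 37 had the same sign in both backgrounds, 25 of them higher and 12 lower. In all 37 the arrays were also non-overlapping, which calls made on a small spread within genotypes favour. Some of the 37 differed mainly in 1 background, such as Rdh9 (0.28 and 2.40) and Hsd17b12 (2.40 and 0.22). Others, such as Zdhhc8, differed about equally in both. The remaining 4 of the 41, Calcb, Eno3, Dsc3 and Tmem144, had opposite signs in the backgrounds, so that their mean describes neither. Taken 1 background at a time, pRb loss called 0 probe sets where p107 was kept (smallest adjusted p = 0.0517, 3026 at an unadjusted p under 0.05; moderated test 0). In p107-/- skin it called 58, of which 40 were higher (0.177%) and 18 lower (0.0796%), and 65 higher and 12 lower after quantile normalization. Subtraction of array medians left 2, and the moderated test called 0, with 2612 at an unadjusted p under 0.05. The test of the difference between the backgrounds called 0 probe sets (limma, smallest adjusted p = 0.0502, 2964 at an unadjusted p under 0.05; moderated test 0, with 2969).

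DNA replication genes were mostly higher in pRb-/- skin, with positive differences in both backgrounds for 32 of the 51 measured. The E2F recognition sequence was looked for in the 250 bases before the start of each gene in the RefSeq promoter table (GRCm38.p6), as any of TTTCCCGC, TTTGGCGC, TTTCGCGC and TTTGCCGC on either strand, where matches may overlap. It was present for 517 of all 27025 genes in that table (1.91%) and for 294 of the 9882 measured genes with an entry (2.98%). Of the replication genes 8 of 44 held it (18.2%): 4 of the 14 that were non-overlapping and higher (28.6%) and 4 of the 30 others (13.3%). Among all non-overlapping genes it was held by 19 of 410 on the higher side (4.63%) and 7 of 617 on the lower side (1.13%), and by 0 of the 22 hair shaft genes with an entry. The matches of the 4 replication genes and of Rbl1 are shown because such sites are the textbook route by which pRb and E2F act on these genes. Each line runs 5′ to 3′ along the gene's strand from upstream of the first match to downstream of the last, with the matches in capitals. They lie at chr8:75109326-75109397 (plus strand, Mcm5), chr1:128359715-128359845 (minus strand, Mcm6), chr11:98907983-98908050 (plus strand, Cdc6), chr4:108579397-108579453 (plus strand, Orc1) and chr2:157204535-157204582 (minus strand, Rbl1).
Mcm5: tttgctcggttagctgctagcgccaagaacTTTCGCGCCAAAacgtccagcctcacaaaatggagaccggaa
Mcm6: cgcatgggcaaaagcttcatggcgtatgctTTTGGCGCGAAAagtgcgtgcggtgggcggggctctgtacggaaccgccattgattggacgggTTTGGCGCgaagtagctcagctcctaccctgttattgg
Cdc6: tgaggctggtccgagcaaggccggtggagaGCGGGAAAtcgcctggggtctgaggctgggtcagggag
Orc1: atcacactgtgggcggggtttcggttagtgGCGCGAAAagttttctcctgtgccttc
Rbl1: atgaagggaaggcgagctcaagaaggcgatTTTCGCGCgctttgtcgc
Mcm5 held 2 overlapping matches, on opposite strands, Mcm6 held 3 and the other genes 1 each. Prim1, Pcna and Rrm2, described next, held none of these 4 sequences in that window. A match is a description of the sequence, and binding was not measured.

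Of the 51 replication genes measured, 44 had a positive shared difference, 17 were non-overlapping and higher (33.3%, against 4.12% of all genes) and 2 were non-overlapping and lower (3.92%, against 6.23%). The median difference was 0.98 over both backgrounds, 0.81 where p107 was kept and 1.17 in p107-/- skin, against -0.10, 0.10 and -0.34 over all genes. None passed the adjusted threshold, where 0 genes were called higher and 2 lower (0.0161%) among all 12393, and 18 had an unadjusted p under 0.05 on the higher side, against 517 of all genes (4.17%), and 2 on the lower side, against 718 (5.79%). The shares of all genes, 4.12% higher and 6.23% lower, are the background for every list below. In bulk skin, a larger share of dividing cells and more RNA per cell cannot be told apart.

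Genes that load and start the replicative helicase had 7 of 21 members non-overlapping and higher, with a median of 0.98. They were Mcm4, Mcm5 and Mcm6 of the MCM ring, the loading factors Cdc6 and Cdt1 (1 of the other 2 probe sets of Cdt1 had the opposite sign), Orc1 of the origin recognition complex and Gins1 of the active helicase. The other Mcm4 probe set had a shared difference of the same sign, but its arrays overlapped in at least 1 background. Mcm5 scored -1.55 and -1.02 in pRb+/+ against 0.08 and 0.14 in pRb-/-;p107+/+ skin, and -0.11 and -0.19 in pRb+/+;p107-/- against 1.23 and 1.41 in pRb-/-;p107-/- skin. The difference of Mcm5 was 1.43 ± 0.13 (limma, adjusted p = 0.11), with 1.39 and 1.46 in the backgrounds. Mcm6 scored -1.35 and -0.93 against -0.16 and 0.16, and -0.12 and -0.37 against 1.75 and 1.02 (1.39 ± 0.24), and its other probe set was also non-overlapping. For both genes the lowest arrays were pRb+/+ and the highest pRb-/-;p107-/-, with the single mutants between them. The other MCM ring genes had positive differences in both backgrounds, at 0.81 and 1.51 for Mcm2, 1.02 and 1.25 for Mcm3 and 1.08 and 1.42 for Mcm7, but their arrays overlapped in at least 1 background. Cdc6 differed by 1.01 ± 0.26 and Orc1 by 0.82 ± 0.28. Orc4, another origin recognition subunit, went the other way (-0.96 ± 0.29, non-overlapping), but another Orc4 probe set differed by 0.35 and -1.95 in the backgrounds (-0.80 ± 0.71). The replication inhibitor Gmnn differed by -0.67 where p107 was kept and 2.28 in p107-/- skin.

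**Figure D2:**
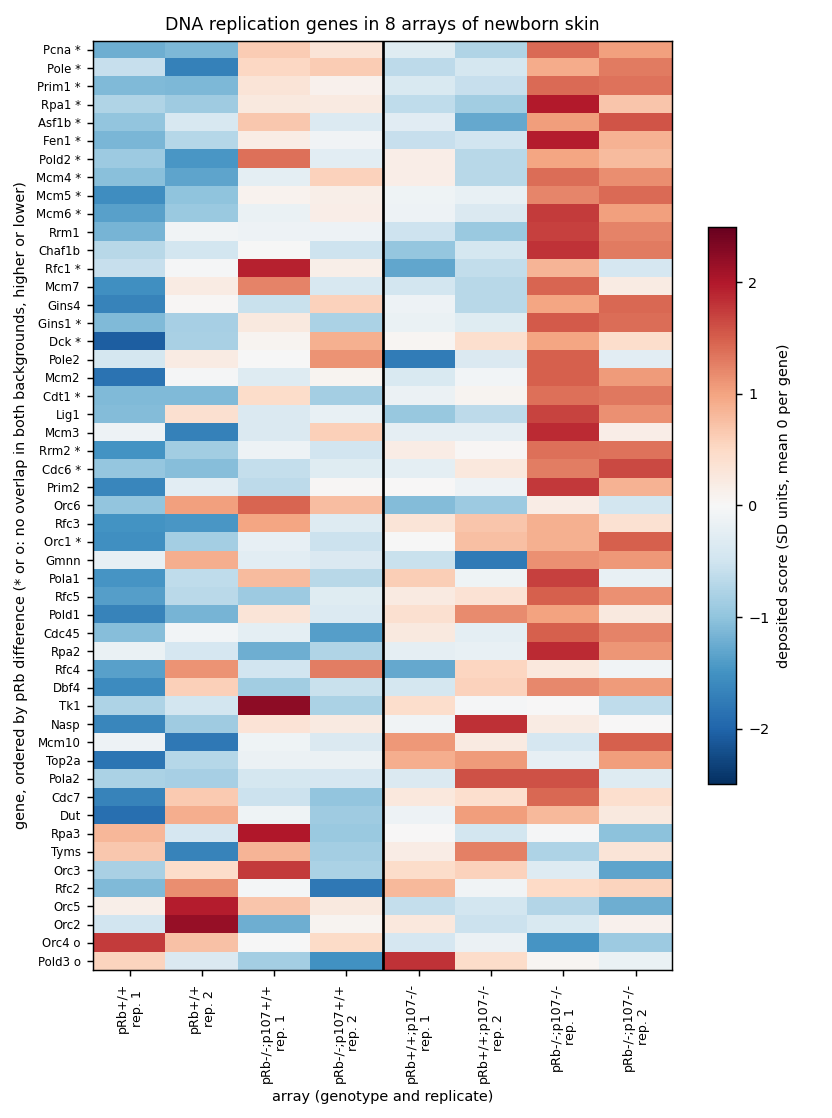
Each row is 1 of 51 DNA replication genes, ordered by its pRb difference, each column is 1 array, and colour is the deposited score in SD units (red above, blue below the gene's mean); the line parts the backgrounds, and * or o mark genes whose arrays did not overlap in both, higher or lower. The columns of pRb+/+ skin are mostly blue (array medians -1.10 and -0.47) and those of pRb-/-;p107-/- skin mostly red (1.21 and 0.86).

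Genes for DNA synthesis and nucleotide supply had 10 of 30 members non-overlapping and higher, with a median of 0.99. Pcna, the sliding clamp of the polymerases, scored -1.22 and -1.12 against 0.63 and 0.31 where p107 was kept, and -0.30 and -0.76 against 1.42 and 1.03 in p107-/- skin. That is 1.70 ± 0.16 (limma, adjusted p = 0.113), with 1.64 and 1.75 in the backgrounds. Prim1, the catalytic subunit of primase, scored -1.11 and -1.13 against 0.32 and 0.11, and -0.39 and -0.58 against 1.42 and 1.36 (1.61 ± 0.14, adjusted p = 0.102). In p107-/- skin alone Prim1 passed (1.88, adjusted p = 0.0444). The other Prim1 probe set had a shared difference of the same sign, but its arrays overlapped in at least 1 background. In the probe sets scored above, Pcna and Prim1 had every pRb-/- array above every pRb+/+ array, across the backgrounds as well as within them. The others were the polymerase genes Pole (1.68 ± 0.27) and Pold2 (1.45 ± 0.45), the flap endonuclease Fen1 (1.46 ± 0.35), the single-strand binding subunit Rpa1 (1.57 ± 0.37), the clamp loader subunit Rfc1 (1.25 ± 0.53), Dck for nucleotide salvage (1.19 ± 0.48, with both other probe sets of the opposite sign), the histone chaperone Asf1b (1.47 ± 0.46) and Rrm2. Rrm2, the regulated subunit of ribonucleotide reductase, differed by 1.07 ± 0.18 and had both of its other probe sets non-overlapping and higher. Pold3 was non-overlapping and lower (-1.24 ± 0.40), with its other probe set of the opposite sign. Wdhd1, which ties the helicase to the primase and was not in these lists, ranked among the 10 genes with the smallest p on the higher side: it scored -1.53 and -1.12 against 0.61 and 0.22, and -0.32 and -0.21 against 0.99 and 1.36 (1.59 ± 0.17, adjusted p = 0.142).

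Chromatin genes of dividing cells had 5 of 20 non-overlapping and higher (25.0%) and 0 lower, with a median of 0.97 (0.46 where p107 was kept and 1.24 in p107-/- skin). They were the maintenance DNA methyltransferase Dnmt1 (1.18 ± 0.29, its other probe set likewise), its partner Uhrf1 (1.31 ± 0.17), Hmgb2 (1.57 ± 0.40, its other probe set of the opposite sign), the histone chaperone Rbbp7 (1.54 ± 0.39) and Tmpo (1.19 ± 0.26). Uhrf1 scored 0.14 and -0.06 against 1.04 and 1.43 where p107 was kept, and -1.07 and -1.63 against -0.01 and 0.16 in p107-/- skin. In this first probe set of Uhrf1 the pRb-/-;p107-/- arrays thus overlapped those of pRb+/+ skin, whereas for Mcm5 and Pcna they were the highest of all. The other Uhrf1 probe set scored -1.26 and -1.33 against 1.23 and 1.42, and -0.32 and 0.17 against 0.02 and 0.08 (1.37 ± 0.57). Its arrays overlapped in p107-/- skin, and its pRb-/-;p107-/- arrays lay above those of pRb+/+ skin. The repair genes Msh6 (1.54 ± 0.46) and Ung (1.59 ± 0.44) were non-overlapping and higher among 17 measured.

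Cell-cycle genes outside S phase had differences of opposite sign in the backgrounds no more often than all genes, where 6349 of 12393 did. Of 47 genes of G2 phase and mitosis, 5 were non-overlapping and higher (10.6%, against 4.12% of all genes) and 0 lower (against 6.23%): the mitotic kinase Cdk1, Nek2, Ndc80, Hmmr and Racgap1. Their list had a median of 0.93 where p107 was kept and 0.16 in p107-/- skin, and 21 of the 47 had opposite signs. The kinase gene Aurka differed by 1.94 and -0.56 in the backgrounds, Plk1 by 1.74 and -0.56, and Mki67, the common proliferation marker, by 0.20 and 0.78. Whether any of these differed between the backgrounds was tested gene by gene, and none passed. Of 12 G1 cyclins and kinases, Ccne1, the E2F-driven cyclin of the G1 to S step, was the non-overlapping member: it scored -0.96 and -0.56 against 0.26 and -0.04, and -0.86 and -0.74 against 1.78 and 1.12 (1.56 ± 0.36). Ccne2 had positive differences of 0.38 and 2.32, whereas the cyclin D genes Ccnd2 (0.45 and -1.33, with 2 of its other 6 probe sets of the opposite shared sign) and Ccnd3 (0.70 and -1.89) had opposite signs. E2f1 differed by 1.61 and 0.09, and E2f8 by 0.25 and 2.38. The CDK inhibitor gene Cdkn2d (p19) was non-overlapping and higher at 1.00 ± 0.29, 1 of 7 inhibitors measured.

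Among 20 p53 targets, 3 were non-overlapping and higher and 1 lower. Tnfrsf23 scored -1.19 and -1.30 in pRb+/+ against 0.02 and 0.34 in pRb-/-;p107+/+ skin, and -0.28 and -0.28 in pRb+/+;p107-/- against 1.39 and 1.30 in pRb-/-;p107-/- skin. With 1 probe set per gene, that was the smallest p on the higher side of the 12393 genes (1.53 ± 0.09, limma, adjusted p = 0.0599). Pmaip1, the BH3-only gene Noxa, differed by 1.49 ± 0.39 and Trp53inp1 by 1.42 ± 0.54, the latter with 0.24 where p107 was kept and 2.60 in p107-/- skin. Zmat3 was lower (-1.44 ± 0.38). In the apoptosis list of 18, the initiator caspase Casp8 was higher (1.64 ± 0.39) and the pore-forming Bak1 lower (-1.66 ± 0.33). Another Bak1 probe set differed by -0.55 and 0.27 in the backgrounds (-0.14 ± 0.44).

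Genes of the differentiating epidermis were also higher in pRb-/- skin more often than lower. Of 40 genes of the spinous, granular and cornified layers, 15 were non-overlapping and higher (37.5%, against 4.12% of all genes) and 4 lower (10%, against 6.23%). The median was 0.98 over both backgrounds, but 0.20 where p107 was kept and 1.49 in p107-/- skin. Dsc1, the desmosomal cadherin of the upper layers, scored -1.36 and -1.25 in pRb+/+ against 0.12 and -0.16 in pRb-/-;p107+/+ skin, and 0.20 and -0.17 in pRb+/+;p107-/- against 1.31 and 1.32 in pRb-/-;p107-/- skin. Its steps were 1.28 and 1.30 in the backgrounds (1.29 ± 0.11, limma, adjusted p = 0.102), a likeness that ranking by p favours. Rptn, a protein of the cornified envelope, scored -0.48 and -0.81 against 0.88 and 0.75, and -1.28 and -1.05 against 1.15 and 0.84 (1.81 ± 0.20, adjusted p = 0.142), with 1 of its 2 other probe sets of the opposite sign. Casp14, the caspase of cornification, scored -1.26 and -0.92 against -0.04 and 0.46, and -0.33 and -0.62 against 1.68 and 1.02 (1.56 ± 0.24). These 3 genes differed by more than 1 SD in each background.

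Several other members differed by under 1 SD where p107 was kept and by more in p107-/- skin. Krtdap, expressed as keratinocytes leave the basal layer, differed by 0.35 and 1.73, the late envelope gene Lce3c by 0.41 and 1.69, the lipid elongase Elovl4 by 0.50 and 2.48, the desquamation protease Klk7 by 0.72 and 2.48, and Ovol1, a repressor that moves keratinocytes into differentiation, by 0.78 and 2.37. The desmosomal plaque gene Dsp differed by 2.20 and 0.31, but its other probe sets gave -1.01 and 1.49 and -1.44 and 1.74. The transglutaminase Tgm1 differed by 0.92 and 1.32 and the tight junction gene Cldn4 by 1.02 and 1.95. The envelope precursor Sprr1b, the lipoxygenase Alox12b, the plakin Ppl and the filaggrin relative Hrnr completed the 15. The 4 lower members were all of 1 family of late envelope genes, Lce1b, Lce1g, Lce1i and Lce1l. Of these Lce1g scored 1.02 and 1.73 against -0.08 and -0.12, and -0.04 and -0.16 against -1.47 and -0.88 (-1.27 ± 0.23). Lce1a1 and Lce1f had negative differences in both backgrounds too, at -0.98 and -0.86 and at -0.58 and -2.15. Genes for the major proteins of these layers differed by less than their standard errors: Krt1 differed by 0.39 ± 0.46, Krt10 by -0.27 ± 0.47, Flg by 0.07 ± 0.51 and loricrin, Lor, by 0.15 ± 0.57 in the probe set that stands for it. Of the other 2 Lor probe sets, which both had a positive shared difference, 1 was non-overlapping and higher (1.44 ± 0.14, limma, adjusted p = 0.137), at 1.47 and 1.40 in the backgrounds, so that the probe sets of Lor disagree in size. Involucrin, Ivl, differed by 0.48 where p107 was kept and 2.05 in p107-/- skin, and was not among the non-overlapping genes.

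Genes of the basal layer, where keratinocytes divide, mostly had opposite signs in the backgrounds. Of 17 measured, 12 did so (against 6349 of all 12393 genes), and the median was 0.04. The growth factor receptor Egfr was the single non-overlapping member (0.79 ± 0.29, with 1 of its 4 other probe sets of the opposite sign). The basal keratin genes Krt5 and Krt14 differed by -0.66 ± 0.41 and -0.54 ± 0.64. Krt14 differed by -1.72 where p107 was kept and 0.64 in p107-/- skin, and Trp63, the master regulator of the stratified epithelium, by -1.86 and 0.85, but 1 of the other 2 probe sets of Krt14 and both others of Trp63 had a shared difference of the opposite sign.

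Stress and hyperproliferation genes of keratinocytes, which are turned on in wounds and psoriatic skin, had 7 of 24 non-overlapping and higher (29.2%) and 1 lower (4.17%). Their median was 0.76 over both backgrounds, 0.50 where p107 was kept and 1.12 in p107-/- skin. Krt16 scored -1.41 and -1.10 in pRb+/+ against -0.08 and -0.52 in pRb-/-;p107+/+ skin, and 0.10 and 0.46 in pRb+/+;p107-/- against 1.43 and 1.11 in pRb-/-;p107-/- skin. Its difference was 0.95 and 0.99 in the backgrounds (0.97 ± 0.16). Btc, which encodes the EGF receptor ligand betacellulin, scored -1.11 and -0.87 against -0.12 and -0.02, and -0.47 and -0.42 against 1.58 and 1.44 (1.44 ± 0.24), and its other probe set was also non-overlapping. Ereg, another ligand of that receptor, differed by 0.50 and 2.38. The remaining members were the small proline-rich genes Sprr2d (1.42 ± 0.27), Sprr2h (1.36 ± 0.39) and Sprr2k (1.15 ± 0.25) and the interleukin 1 family gene Il1f9 (1.18 ± 0.20). In each of Sprr2d, Sprr2h, Il1f9, Ereg and Btc the pRb-/-;p107-/- arrays were the highest, at 1.44 or more, and the highest of the other 6 arrays scored 0.00. The stress keratin Krt6b was the lower one, at -0.36 and -2.52.

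Immediate early genes, the first to respond to growth factors and to handling of tissue, had 4 of 21 non-overlapping and higher (19.0%) and 0 lower. Their list median was 0.21 where p107 was kept and 1.49 in p107-/- skin. Where p107 was kept 5 members parted higher and 4 lower, and in p107-/- skin 17 parted higher and 1 lower. In the probe set that stands for it, Klf6 scored -1.73 and -0.88 against 0.59 and 0.53, and -0.13 and -0.52 against 1.20 and 0.93 (1.63 ± 0.24). Jun (1.55 ± 0.47) and Nr4a1 (1.62 ± 0.40) also differed by over 1 SD in both backgrounds, while Ier3 differed by 0.28 and 2.08. Both other Klf6 probe sets had a positive shared difference, but each had opposite signs in the backgrounds and neither was non-overlapping in both. Chemokine and cytokine genes had 3 of 20 higher, Ccl9, Ccl20 and Tslp, and Ccl7 lower. Tslp and Ccl20, signals that keratinocytes send to immune cells, differed by 0.59 and 2.32 and by 0.79 and 2.18. Interferon response genes had 0 of 17 non-overlapping in either direction.

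Hair shaft genes were mostly lower in pRb-/- skin, with the largest non-overlapping share of the 36 lists. Of 28 measured, 20 were non-overlapping and lower (71.4%, against 6.23% of all genes) and 0 higher, with 12 lower after quantile normalization and 15 after subtraction of array medians. The median was -0.76 over both backgrounds, -0.97 where p107 was kept and -0.56 in p107-/- skin. The score medians of the list were 1.25 and 1.34 in pRb+/+ against 0.35 and 0.27 in pRb-/-;p107+/+ skin, and -0.57 and -0.58 in pRb+/+;p107-/- against -1.04 and -1.02 in pRb-/-;p107-/- skin. The list thus stood lower with pRb loss in each background, and both p107-/- groups stood below both groups that kept p107. Since follicle keratinocytes are part of whole skin, fewer of them and less hair RNA in each cannot be told apart.

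Krt31, a keratin of the hair cortex, scored 1.33 and 1.28 in pRb+/+ against 0.44 and 0.29 in pRb-/-;p107+/+ skin, and -0.42 and -0.53 in pRb+/+;p107-/- against -1.20 and -1.19 in pRb-/-;p107-/- skin. The shared difference was -0.83 ± 0.06 (limma, adjusted p = 0.102). Krtap6-5, a keratin-associated protein that crosslinks the shaft filaments and was not in the list, scored 1.23 and 1.20 against 0.39 and 0.44, and -0.26 and -0.35 against -1.27 and -1.38 (-0.91 ± 0.06, adjusted p = 0.0744), and passed in p107-/- skin alone (-1.03, adjusted p = 0.0393). Gprc5d, an orphan receptor of hair-forming and other keratinizing cells, also outside the list, scored 1.21 and 1.27 against 0.54 and 0.47, and -0.54 and -0.59 against -1.14 and -1.22 (-0.67 ± 0.04, adjusted p = 0.0619). These genes followed the same staircase as the list, with duplicate arrays close to each other. Krtap16-3 differed by -0.84 ± 0.07 (adjusted p = 0.102) with its other probe set likewise non-overlapping, Krtap3-1 by -1.18 ± 0.15, and the type I keratins Krt33a, Krt33b and Krt34 by -0.83 ± 0.09, -1.06 ± 0.14 and -0.75 ± 0.16. The type II keratins Krt81, Krt83 and Krt86 gave -0.77 ± 0.22, -0.75 ± 0.15 and -0.76 ± 0.24. Padi3, which citrullinates shaft and sheath proteins, gave -0.71 ± 0.14.

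**Figure D3:**
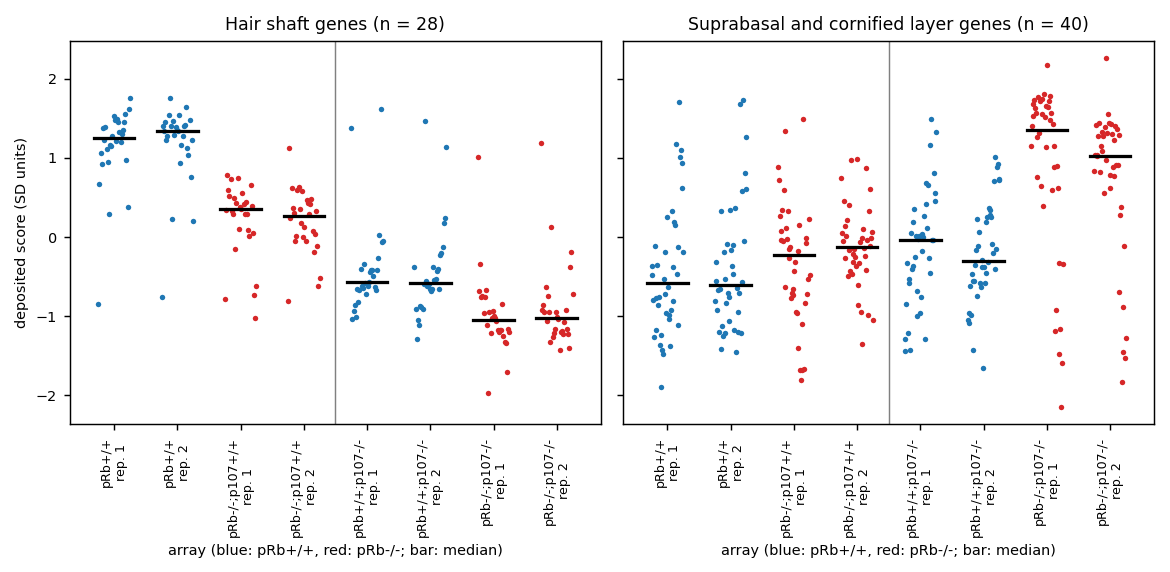
Points are the scores (SD units) of 28 hair shaft genes (left) and 40 genes of the spinous, granular and cornified layers (right) on each array, blue for pRb+/+ and red for pRb-/-, with the list median as a bar and a line between the backgrounds. Hair shaft medians step from 1.25 and 1.34 down to -1.04 and -1.02, whereas the epidermal medians lie between -0.60 and -0.04 on 6 arrays and at 1.36 and 1.02 on the pRb-/-;p107-/- arrays.

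The 8 genes of the hair shaft list that did not part in both backgrounds included the keratins Krt35 (-0.58 and 0.10), Krt32 (-0.69 and 0.51), Krt82 (-0.30 and 0.17) and Krt84 (0.01 and 0.59). The keratin-associated genes Krtap13-1 (-0.86 and 0.37) and Krtap15 (-1.33 and 0.11) and S100a3 (-1.28 and -0.02) were lower mainly where p107 was kept, and Krtap13 in p107-/- skin (-0.02 and -1.35). In the inner root sheath, which moulds the shaft, 4 of 7 genes were non-overlapping and lower (57.1%): Krt25, Krt27, Krt72 and Tchh. Krt25 scored 0.90 and 1.42 against 0.51 and 0.66, and -0.54 and -0.59 against -1.03 and -1.33 (-0.60 ± 0.14).

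Of 31 regulators of follicle growth, 3 were non-overlapping and lower (9.68%, against 6.23% of all genes) and 2 higher (6.45%, against 4.12%), shares near the background, and the median was -0.07. The lower ones were Msx1, a homeobox gene of the hair matrix (-1.22 ± 0.15, its other probe set of the opposite sign), Gli1, the readout of Hedgehog signalling (-1.49 ± 0.44), and Sostdc1, a BMP and Wnt antagonist (-0.73 ± 0.22). The higher ones were Runx1 (0.78 ± 0.30, with 1 of its other 4 probe sets of the opposite sign) and Ovol1. Hoxc13, a homeobox activator of hair keratins, differed by -1.79 where p107 was kept and -0.12 in p107-/- skin, and the ligand Shh by 1.60 and -1.05. In the Notch pathway Notch1 (-1.56 ± 0.44) and Jag2 (-1.22 ± 0.42, its other probe set of the opposite sign) were lower, 2 of 13. Another Notch1 probe set differed by -0.91 and 0.29 in the backgrounds (-0.31 ± 0.63).

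Cells of the dermis and subcutis were read from their markers. Of 31 fibroblast and matrix genes, 6 were non-overlapping and lower (19.4%, against 6.23% of all genes) and 0 higher, and the median was -0.12 where p107 was kept and -1.59 in p107-/- skin. They were the collagens Col3a1 (-1.50 ± 0.45), Col5a2 (-1.66 ± 0.37), Col6a1 (-1.28 ± 0.39) and Col6a3 (-1.62 ± 0.41), the surface marker Thy1 (-1.53 ± 0.48) and the crosslinking enzyme Lox (-1.39 ± 0.52, with 1 of its other 2 probe sets of the opposite sign). Col5a2 scored 0.30 and 0.93 against -0.61 and -0.17, and 1.24 and 0.86 against -1.03 and -1.53. The major collagen Col1a1 had opposite signs, 1.19 and -2.07, and its other probe set a shared difference of the opposite sign. A lower share of dermis in a skin piece and less matrix RNA per fibroblast cannot be told apart, and the part of dermal content in the epidermal and hair differences was not tested.

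Adipocyte markers mostly had opposite signs in the backgrounds. Of 22 adipocyte markers, 17 had opposite signs (against 6349 of all 12393 genes), with a median of 1.08 where p107 was kept and -1.01 in p107-/- skin. Dgat2 was the single non-overlapping marker (1.23 ± 0.49). Skeletal muscle had 3 of 31 higher (9.68%, against 4.12% of all genes), the fast myosin Myh4 (1.53 ± 0.23), Atp2a1 and Ldb3, for which neither of the other 2 probe sets was positive, and 1, Myog, lower (3.23%, against 6.23%). Macrophage and dendritic cell markers had 5 of 25 lower (20%), Csf1r, Adgre1, Mrc1, Tyrobp and H2-Eb1, and C1qb higher with both of its other probe sets of the opposite sign. The antigen-presenting gene H2-Eb1 scored 0.35 and 1.21 against -1.13 and -1.22, and 1.25 and 0.66 against -0.63 and -0.49 (-1.74 ± 0.25). The mast cell, lymphocyte, erythroid and melanocyte lists had 1 lower each (Cma1, Thy1, which fibroblasts also express, Hemgn and Dct) and Schwann cells 2, and smooth muscle and sebocyte lists 0.

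**Figure D4:**
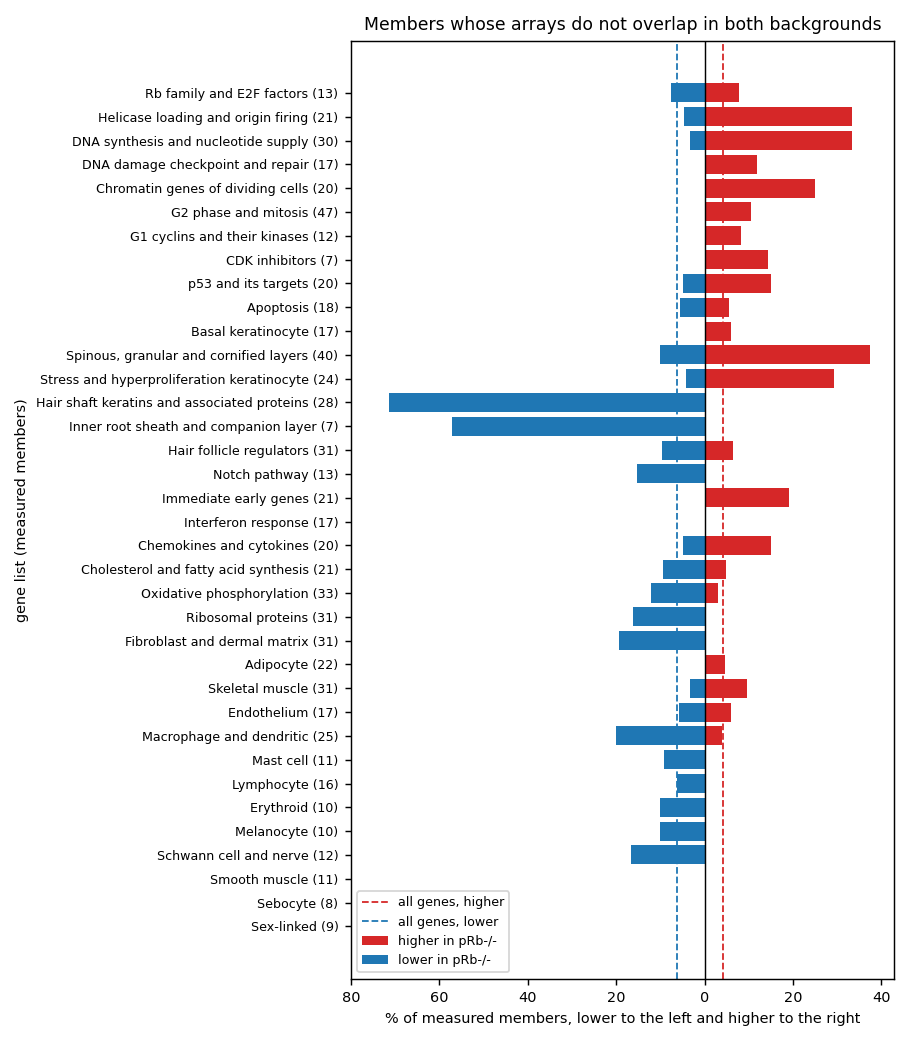
Bars give, for each of 36 gene lists (measured members in brackets), the percentage of members whose arrays did not overlap in both backgrounds, higher in pRb-/- skin to the right in red and lower to the left in blue; dashed lines mark all genes (4.12% and 6.23%). Hair shaft (71.4%) and inner root sheath genes (57.1%) reach farthest to the left, and suprabasal (37.5%) and both replication lists (33.3%) farthest to the right.

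Ribosomal protein genes had 5 of 31 non-overlapping and lower (16.1%, against 6.23% of all genes) and 0 higher, with a shared median of -0.86, and -0.49 and -0.9997 in the backgrounds. Oxidative phosphorylation genes had 4 of 33 lower (12.1%) and Ndufa4 higher, with a shared median of -0.64, and -0.04 and -1.22 in the backgrounds. Cholesterol and fatty acid synthesis had Fdps higher and Lss and Fasn lower of 21, and both other probe sets of Lss and the other of Fdps had the opposite sign.

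The remaining genes with the smallest p were of varied roles. On the higher side Pla2g2f, a secreted phospholipase of the upper epidermis, scored -1.15 and -1.17 against 0.69 and -0.08, and -0.39 and -0.51 against 1.42 and 1.19 (1.61 ± 0.19, limma, adjusted p = 0.157), with its other probe set likewise. Nipal2, a putative magnesium transporter, differed by 1.49 ± 0.15 (adjusted p = 0.142), with 1.17 where p107 was kept, and passed in p107-/- skin (adjusted p = 0.0444). Cwh43, which remodels GPI anchors, scored 0.00 and -0.08 against 1.54 and 1.14, and -1.50 and -1.03 against 0.09 and -0.15 (1.31 ± 0.15). As for Rbl1 and the first Uhrf1 probe set, its p107-/- arrays were the lower pair for each pRb status.

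On the lower side Mlec, an endoplasmic reticulum lectin gene, scored 0.31 and 0.62 against -1.24 and -1.06, and 1.31 and 1.19 against -0.33 and -0.79 (-1.71 ± 0.14, limma, adjusted p = 0.102). Wfdc18, a secreted WAP-domain protein, scored 0.90 and 0.18 against -1.29 and -1.12, and 1.11 and 1.23 against -0.57 and -0.44 (-1.71 ± 0.17, adjusted p = 0.137). Abhd14b, a hydrolase gene, differed by -1.22 and -1.52 (-1.37 ± 0.12, adjusted p = 0.11). For these genes and Zdhhc8 the lowest arrays were those of pRb-/-;p107+/+ skin, not of pRb-/-;p107-/- skin. Ltbp3, which holds latent TGF-beta in the matrix, instead scored 1.09 and 1.39 against 0.07 and -0.16, and 0.07 and 0.28 against -1.47 and -1.26 (-1.41 ± 0.12, adjusted p = 0.102), with its other probe set likewise, and was lowest in pRb-/-;p107-/- skin, as were Ptprd and the hair genes.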

How the data were processed

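RNA from 30 mg of newborn skin was hybridized to Affymetrix arrays, per the labels' protocols. The deposited values are standardized scores of the authors, with mean 0 and SD 1 for each probe set. RMA was used per the submitters' processing notes, and no version is given. The sources used here do not say whether log or linear values were standardized, and no total count or signal over background can be read. Groups came from the sample titles.

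Linear models were fitted with limma 3.58.1 in R 4.3.3 without moderation, since standardization ties each variance to its differences. The model had terms for pRb and p107 status (5 residual degrees of freedom), while differences within a background and their interaction came from a coefficient per genotype (4). Benjamini-Hochberg adjustment ran over 22626 probe sets, with a threshold of 0.05. The 64 control probe sets were left out. The fit was tested on simulated data with independent noise and pRb effects equal in both backgrounds. Effects that differ between the backgrounds were not simulated.

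The platform annotation gave 1 symbol to 20380 probe sets, several to 691 and none to 1555. Of a gene's probe sets, names ending in _at were preferred, then the lowest number. Genes named singly were the 10 with the smallest p in each direction, plus the targeted genes and members of 36 lists. Those taken by p were all non-overlapping in both backgrounds, which was not a condition of their choice. The members and lists were chosen with earlier results of these data known, so that what earlier results showed is not independent support.

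Alternatives were the moderated test, the mean of both background differences, no p107 term, a replicate block, quantile normalization, subtraction of array medians, a threshold of 0.1, the mean over a gene's probe sets and leaving out each array. Same-numbered arrays were not paired: their deviations correlated at -0.131 to 0.105. Within a genotype, duplicate arrays correlated at 0.0365 to 0.35.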

Additional observations from a re-analysis of the deposited data

Results flagged for a closer look

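In 8 gene lists the median scores of the pRb-/- and pRb+/+ arrays did not overlap in either background but parted in opposite directions, and they are given because they have no shared direction. Other lists, such as basal keratinocyte, lymphocyte, smooth muscle and DNA repair genes, also changed the sign of their median difference, but with arrays that overlapped in at least 1 background. The difference between the backgrounds was not tested for these lists, and gene by gene it called 0 probe sets (limma interaction, smallest adjusted p = 0.0502, 2964 at an unadjusted p under 0.05). Adipocyte markers went from 1.08 to -1.01, a difference of -2.09, the largest of the 8 lists concerned. Skeletal muscle markers went from 1.22 to -0.25 (-1.47), and G1 cyclins and their kinases from 0.57 to -0.46 (-1.03). Cholesterol and fatty acid synthesis genes went from 0.48 to -0.49 (-0.97), interferon response genes from 0.76 to -0.12 (-0.88) and sebocyte markers from 0.47 to -0.40 (-0.88). Endothelial markers went from 0.02 to -0.74 (-0.76) and hair follicle regulators from 0.02 to -0.41 (-0.43). The median over all genes went from 0.10 to -0.34, whereas that of the DNA repair genes went from -0.12 to 0.11.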

How the results depend on the processing

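The 3 calls over both backgrounds became 0 with the moderated test, 0 without the p107 term, 0 with the replicate block, 5 after subtraction of array medians (4 higher and 1 lower, against 1 and 2), 41 as the mean of both background differences and 9 at a threshold of 0.1, and 0 to 2 without any 1 array. Those with the same sign in both backgrounds numbered 0, 0, 0, 5, 37 and 9, and 0 to 2. Where p107 was kept, the 0 calls became 1 with the replicate block and 0 to 4 without any 1 array. In p107-/- skin the 58 became 0 with the moderated test, 0 with the replicate block, 2 after subtraction of array medians, 77 after quantile normalization, and 0 to 2 without any 1 array. The 0 interaction calls became 0 to 1 without any 1 array. Among 24 named genes, 335 of 336 alternative values kept their direction: Rbl2 ran from -0.26 (without pRb-/-;p107+/+ replicate 2, limma, adjusted p = 0.891) to 0.74 without any 1 array. Replicate numbers do not pair these arrays, so a call lost under the block is not a weaker effect. Of 504 alternative values for the medians of 36 lists, 77 moved by more than 1 SD between replicates, and none of the replication, suprabasal, stress, hair shaft, ribosomal or fibroblast medians changed sign under any alternative. With 2 arrays per genotype and bounded scores, the size of a change in RNA and signal over background cannot be given.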
